A study of Homo sapiens with 4 samples.

Results

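The genes described here are 35 genes of glycolysis and the pentose phosphate pathway, found by their symbols among the 41507 genes of a deposited expression table. They cover glucose entry (SLC2A1, SLC2A3), the hexokinases (HK1, HK2, HK3), glucose-6-phosphate isomerase (GPI), the phosphofructokinases (PFKL, PFKM, PFKP) and the enzymes that make their activator (PFKFB1, PFKFB2, PFKFB3, PFKFB4). They go on through the aldolases (ALDOA, ALDOC) and the lower steps (TPI1, GAPDH, PGK1, PGAM1, ENO1, ENO2, PKM) to lactate (LDHA, LDHB, SLC16A1, SLC16A3), the pyruvate dehydrogenase kinases (PDK1, PDK2, PDK3) and the pentose phosphate enzymes (PGLS, PGD, RPIA, RPE, TKT, TALDO1). RNA was sequenced from SU-DHL-5 and Toledo, established lines of diffuse large B-cell lymphoma (DLBCL), after culture with the vehicle DMSO or with 1 µM JQ1, an inhibitor of the BET bromodomain proteins. The sample labels give 6 h of treatment, and the legend of the study gives a longer time. Each of the 4 conditions was 1 sample, sequenced as 2 libraries whose difference is not explained in the labels, so the libraries were averaged and counted as n = 1. There is thus no replicate behind any difference below, p-values are not given, and the values of both libraries and the same count over all genes stand in their place. The cell line and its culture cannot be told apart in a comparison of the lines.

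Glycolysis splits glucose into pyruvate and yields ATP and NADH, and its pyruvate either enters the mitochondrion or is reduced to lactate, which returns NAD. Proliferating B cells and many lymphomas take up much glucose and release lactate even with oxygen present. The pentose phosphate pathway branches off after the hexokinase step and supplies NADPH and the ribose of nucleotides. Its oxidative enzymes include PGLS and PGD, and its reversible enzymes RPIA, RPE, TKT and TALDO1 lead back to glycolysis. The transcription factors MYC and HIF-1 are textbook activators of many of these genes. All values below are mRNA levels and say nothing of enzyme activity or flux.

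The level of a gene is given in RPKM, its reads scaled by the length of the gene and by how many reads were mapped in that library, so levels can be compared between genes. The libraries held from 14617583 to 17679831 mapped reads, recovered from the RPKM values, with 94.8% to 95.5% of them on genes. The B-cell markers MS4A1, CD79A, CD79B and PAX5 were above 1 RPKM, and their summed level was 832 to 939 RPKM in the DMSO libraries and 592 to 616 RPKM in the JQ1 libraries. Not each marker followed the sum. The means with DMSO and JQ1 were 226 and 227 RPKM for CD79B in SU-DHL-5 and 16.4 and 19.9 RPKM for PAX5 in Toledo. In the remaining cases the mean of the marker was lower with JQ1. Of the 4 T-cell markers only CD3E passed 1 RPKM in any library, and of the 4 myeloid markers only LYZ. Their lists summed to 1.24 and 1.00 RPKM and to 1.32 and 1.35 RPKM in the SU-DHL-5 DMSO libraries, and to under 0.4 RPKM in every other library, and the part of such cells in the results was not tested. The table also holds 113 pseudogene rows named after these genes. All were listed at 0, so reads shared with such copies would have been counted on the parent gene or dropped, and which of these was done is not given in the sources used here.

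Together the 35 genes took 4.49% and 4.73% of all mapped reads in the SU-DHL-5 DMSO libraries, against 2.06% and 2.07% in the Toledo DMSO libraries. With JQ1 the share was 5.58% and 5.40% in SU-DHL-5, above both DMSO libraries. In Toledo it was 1.87% and 2.08%, which overlapped its DMSO libraries. GAPDH, the dehydrogenase that yields the NADH of glycolysis, alone took 1.98% and 2.08% of reads in SU-DHL-5 with DMSO and 2.69% and 2.51% with JQ1. It had the highest RPKM of all genes in each SU-DHL-5 library, and ranked between 16 and 23 in the Toledo libraries. Without GAPDH the share was 2.51% and 2.66% with DMSO and 2.89% and 2.89% with JQ1 in SU-DHL-5, and 1.39% and 1.45% with DMSO and 1.20% and 1.31% with JQ1 in Toledo. Thus the Toledo libraries moved down once GAPDH was set aside, and the SU-DHL-5 libraries up with or without it. In bulk RNA, fewer cells that express a gene and less of its RNA per cell cannot be told apart.

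**Figure D1:**
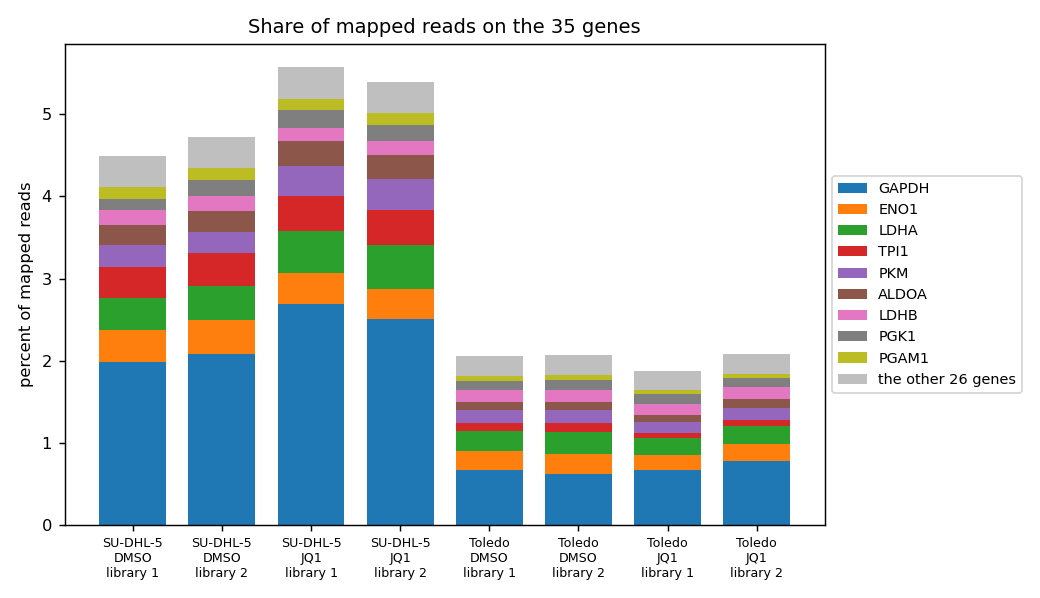
Percent of the mapped reads of each library that fell on the 35 genes, stacked by gene, with the 9 genes of most reads shown apart. The SU-DHL-5 bars reach 4.49% to 5.58% and the Toledo bars 1.87% to 2.08%, and GAPDH is the largest segment of every bar.

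The level differed widely along the pathway. The lower glycolytic genes TPI1, GAPDH, PGK1, PGAM1, ENO1, PKM, LDHA and LDHB lay above 200 RPKM in all 8 libraries. The transporters, hexokinases and PDK genes lay below 60 RPKM throughout. HK3, a hexokinase typical of myeloid cells, was listed at 0 in every library. PFKFB1 stayed under 0.3 RPKM and PFKFB2 under 1 RPKM. SLC16A3, the lactate exporter MCT4, was listed at 0 in the 4 SU-DHL-5 libraries and lay between 0.421 and 1.71 RPKM in Toledo.

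**Figure D2:**
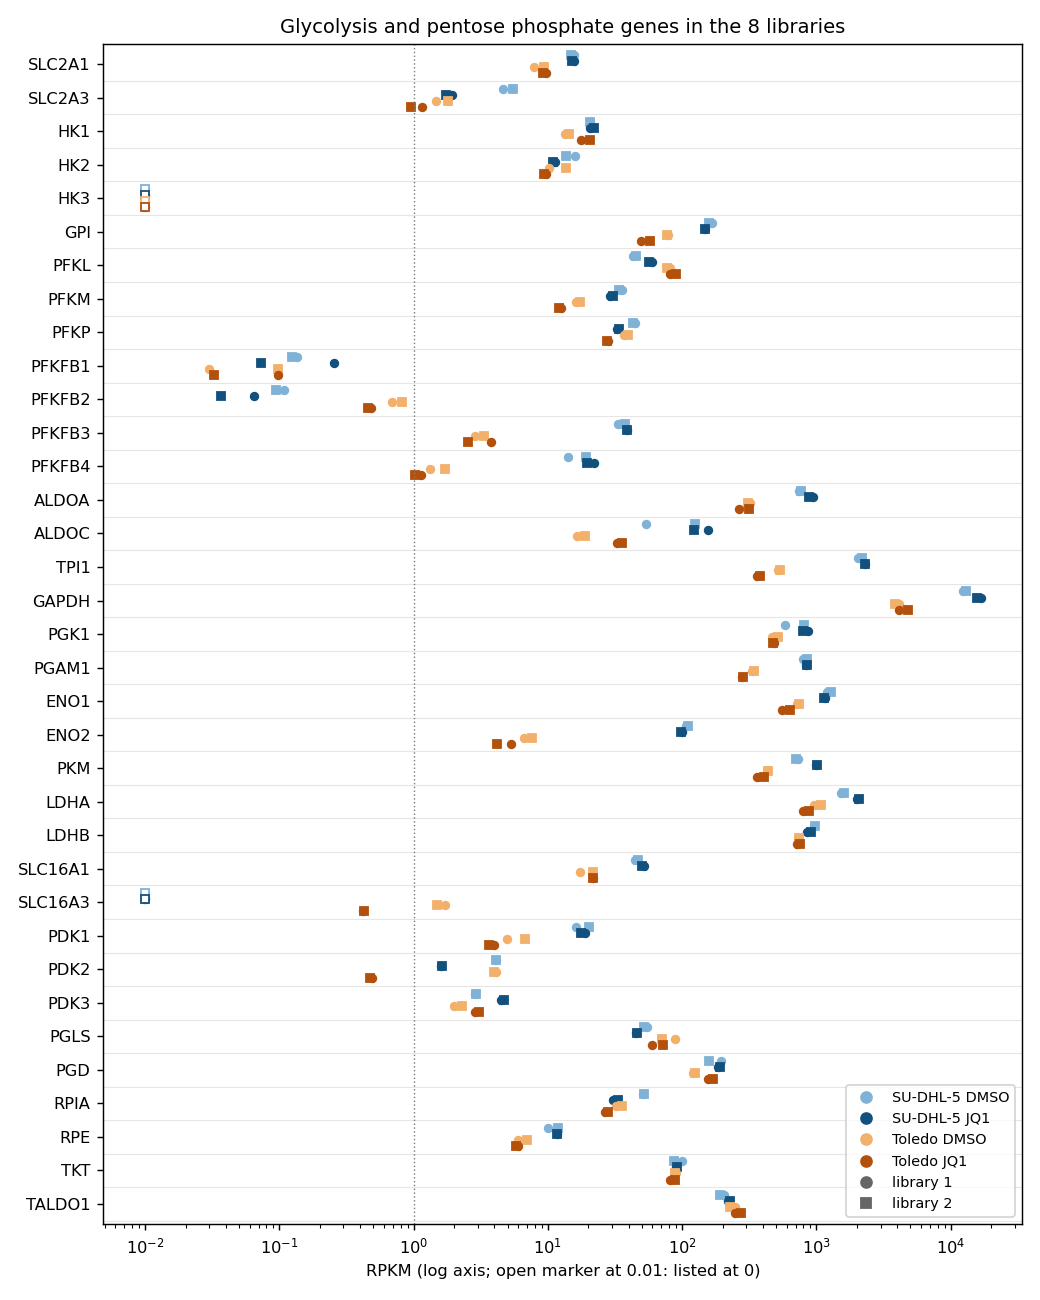
RPKM of each of the 35 genes in the 8 libraries on a log axis, with the line and treatment by colour and the library by marker shape; open markers at the left edge are genes listed at 0 and the dotted line is 1 RPKM. The lower glycolytic genes lie to the right, and in most rows the Toledo markers lie to the left of the SU-DHL-5 markers.

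Differences were read by a fixed rule. A gene was assessed where the mean of at least 1 of the compared samples reached 1 RPKM, and it was called higher or lower where the means, each plus 0.1 RPKM, differed at least 1.5-fold and both libraries of 1 sample lay beyond both of the other. Log2 ratios are those of the means plus 0.1 RPKM and understate the change of genes at low levels. HK3, PFKFB1 and PFKFB2 were assessed in no comparison, and SLC16A3 was not assessed for JQ1 in SU-DHL-5. Intervals are 95% exact binomial intervals of the log2 ratio of reads and cover counting error only. Between the libraries of a sample, 1 of 31 genes at 1 RPKM or more differed past 1.5-fold in SU-DHL-5 with DMSO (ALDOC, against 0.844% of all genes). None of 32 did in Toledo with DMSO (1.34%), 0 of 31 in SU-DHL-5 with JQ1 (0.391%) and 0 of 30 in Toledo with JQ1 (0.502%).

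The lines were first compared with DMSO, to see from which level each responded. There, 19 of the 32 assessed genes (59.4%) were called lower in Toledo than in SU-DHL-5, where 24.0% of all assessed genes were. Called higher were 2 genes (6.25%), against 27.1% of all genes. Without regard to fold, the libraries of the lines did not overlap for 30 of the 32 genes, 26 of them lower in Toledo (41.9% of all genes) and 4 higher (43.2%). The median log2 ratio of the 32 genes was -0.74, and that of all genes was 0.00 to 2 decimals. The median stayed at -0.74 with SLC16A3 set at the bound given below.

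The widest gaps to the lower side were in isozymes and in the regulators of phosphofructokinase. ENO2, the neuronal enolase, was at 106 and 111 RPKM in SU-DHL-5 and at 6.65 and 7.62 RPKM in Toledo, a 15.0-fold lower level (log2 ratio -3.91, interval -4.05 to -3.81). PFKFB3, which makes fructose 2,6-bisphosphate, the activator of phosphofructokinase, was at 33.3 and 37.6 RPKM in SU-DHL-5 and at 2.86 and 3.35 RPKM in Toledo (11.1-fold lower, log2 ratio -3.47). PFKFB4, of the same family, was at 14.0 and 19.3 against 1.33 and 1.72 RPKM (10.3-fold lower). In these 3 genes the highest Toledo library was far below the lowest SU-DHL-5 library. ALDOC, the aldolase of brain, was at 53.5 and 124 RPKM in SU-DHL-5 and at 16.6 and 19.0 RPKM in Toledo. Its log2 ratio of -2.32 kept its sign with either SU-DHL-5 library, although those libraries were more than 1.5-fold apart.

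Of the main line of glycolysis, TPI1, the triosephosphate isomerase, was at 2036 and 2166 RPKM in SU-DHL-5 and at 517 and 535 RPKM in Toledo, 3.99-fold lower. GAPDH was at 12323 and 12906 against 4144 and 3833 RPKM (3.16-fold lower). PGAM1, the phosphoglycerate mutase, was at 797 and 854 against 329 and 344 RPKM (2.45-fold lower), and ALDOA, the main aldolase, at 743 and 770 against 317 and 309 RPKM (2.42-fold lower). Each of these gaps was much wider than that between libraries of a sample. Smaller differences past the fold followed. GPI was at 168 and 158 RPKM in SU-DHL-5 and at 77.7 and 76.6 RPKM in Toledo (2.11-fold lower), and PFKM, the muscle phosphofructokinase, at 35.7 and 34.0 against 16.1 and 17.5 RPKM (2.07-fold). ENO1, the main enolase, was at 1204 and 1289 against 716 and 744 RPKM (1.71-fold). PKM, the pyruvate kinase (1.67-fold), and LDHA (1.53-fold), whose values are given below, were called too. The LDHA call was lost without SU-DHL-5 DMSO library 2 (log2 ratio -0.57) or without Toledo DMSO library 1 (-0.53). PGK1, at 582 and 813 RPKM in SU-DHL-5 and 470 and 519 RPKM in Toledo, did not reach the fold (log2 ratio -0.49), and neither did LDHB (-0.38). PGK1 would be called lower without SU-DHL-5 DMSO library 1 (-0.72).

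At the entry and exit of the pathway, SLC2A1 (the glucose transporter GLUT1) was at 15.7 and 14.7 RPKM in SU-DHL-5 and at 7.88 and 9.36 RPKM in Toledo (1.76-fold lower). SLC2A3 (GLUT3) was at 4.66 and 5.53 against 1.47 and 1.81 RPKM (2.99-fold lower), and SLC16A1, the lactate carrier MCT1, at 44.3 and 46.9 against 17.2 and 21.7 RPKM (2.34-fold lower). Hence all 3 of these carriers were lower in Toledo. PDK1, a kinase that switches off pyruvate dehydrogenase, was at 16.3 and 20.4 against 4.95 and 6.77 RPKM (3.09-fold lower). PDK2 was at about the same level in both lines (log2 ratio -0.01, interval -0.20 to 0.18), with 4.09 and 4.10 RPKM in SU-DHL-5 and 4.14 and 3.98 RPKM in Toledo. PDK3 had a log2 ratio of -0.41, under the fold.

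The genes that stood higher in Toledo were few. PFKL, the liver phosphofructokinase, was at 43.1 and 45.5 RPKM in SU-DHL-5 and at 81.2 and 76.9 RPKM in Toledo (1.78-fold higher). SLC16A3 had no read in SU-DHL-5 and 135 reads in the 2 Toledo libraries (1.71 and 1.49 RPKM). Counted against 3 reads over both SU-DHL-5 libraries, that gave a bound of 43.4-fold higher (log2 ratio 5.44). The bound depends on that floor, and the lower end of the counting interval was 5.12. The phosphofructokinases therefore went different ways: PFKL higher, PFKM lower, and PFKP, the platelet form, at 44.2 and 42.9 against 36.6 and 39.7 RPKM. Of the pentose phosphate genes, RPE, the ribulose phosphate epimerase, at 9.99 and 11.8 against 5.98 and 6.94 RPKM (1.68-fold), and RPIA (1.52-fold) were called lower in Toledo. PGLS (log2 ratio 0.58), PGD (-0.51), TKT (-0.07) and TALDO1 (0.26) were not past the fold, nor were HK1 (-0.56) and HK2 (-0.31). The RPIA call was lost without Toledo DMSO library 1 (log2 ratio -0.54). Called lower would be PGD without SU-DHL-5 DMSO library 2 (-0.65) and HK1 without Toledo DMSO library 2 (-0.62). PGLS would be called higher without SU-DHL-5 DMSO library 1 (0.62) or without Toledo DMSO library 2 (0.73).

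**Figure D3:**
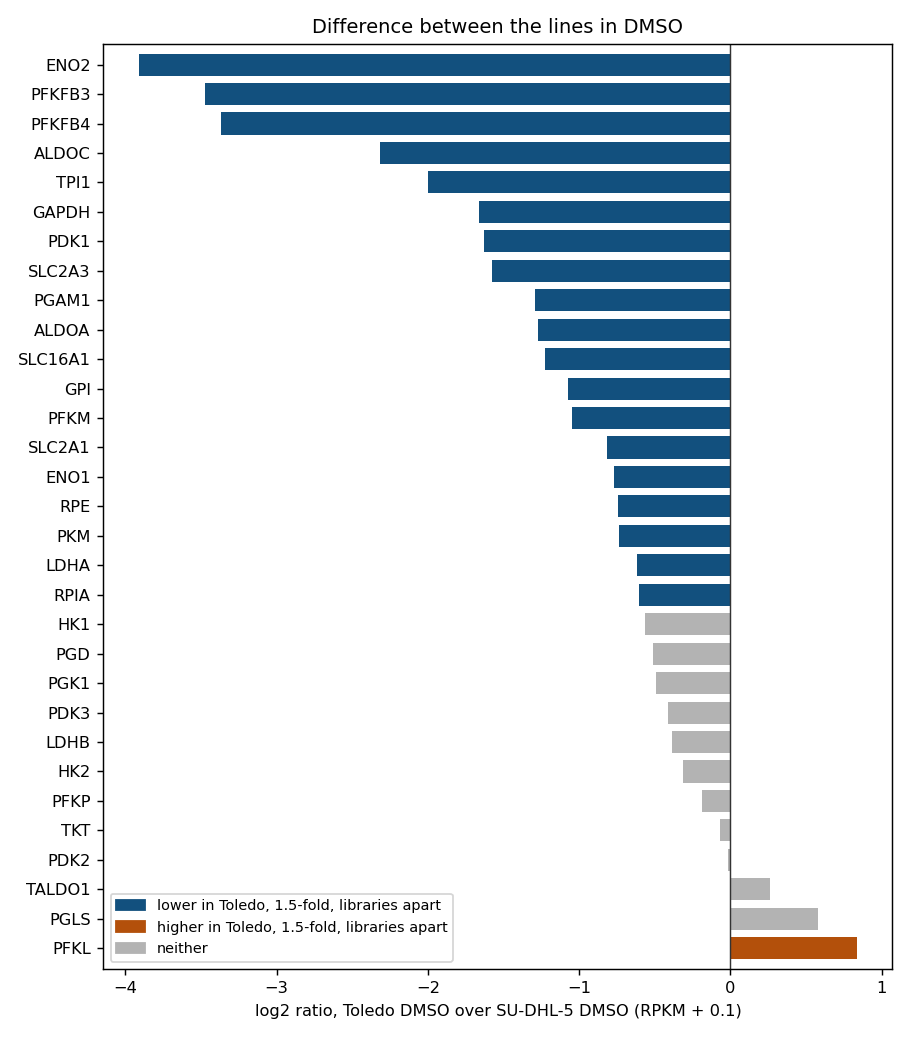
Log2 ratio of mean RPKM plus 0.1, Toledo DMSO over SU-DHL-5 DMSO, for 31 of the 32 assessed genes in order of the ratio; SLC16A3 is left out because SU-DHL-5 had no read. Blue bars (19) were called lower in Toledo, the orange bar is PFKL, and grey bars were not called, with ENO2 at -3.91 at the far end.

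For the response to JQ1, 3 of 31 assessed genes (9.68%) were called lower in SU-DHL-5, namely SLC2A3, PDK2 and RPIA, against 12.9% of all assessed genes. PDK3 was the 1 gene called higher there (3.23%, against 9.01%). In Toledo, 4 of 32 genes (12.5%) were called lower, SLC2A3, SLC16A3, PDK1 and PDK2, against 17.2% of all genes. ALDOC was the 1 gene called higher (3.12%, against 6.98%). Lower in both lines were SLC2A3 and PDK2, 2 of the 31 genes assessed in both, where 8.09% of all genes were, and no gene was called higher in both (3.79%). Each of these shares was at or under that of all genes. The median log2 ratio of the genes was 0.05 in SU-DHL-5 (0.02 over all genes) and -0.21 in Toledo (-0.07 over all genes).

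**Figure D4:**
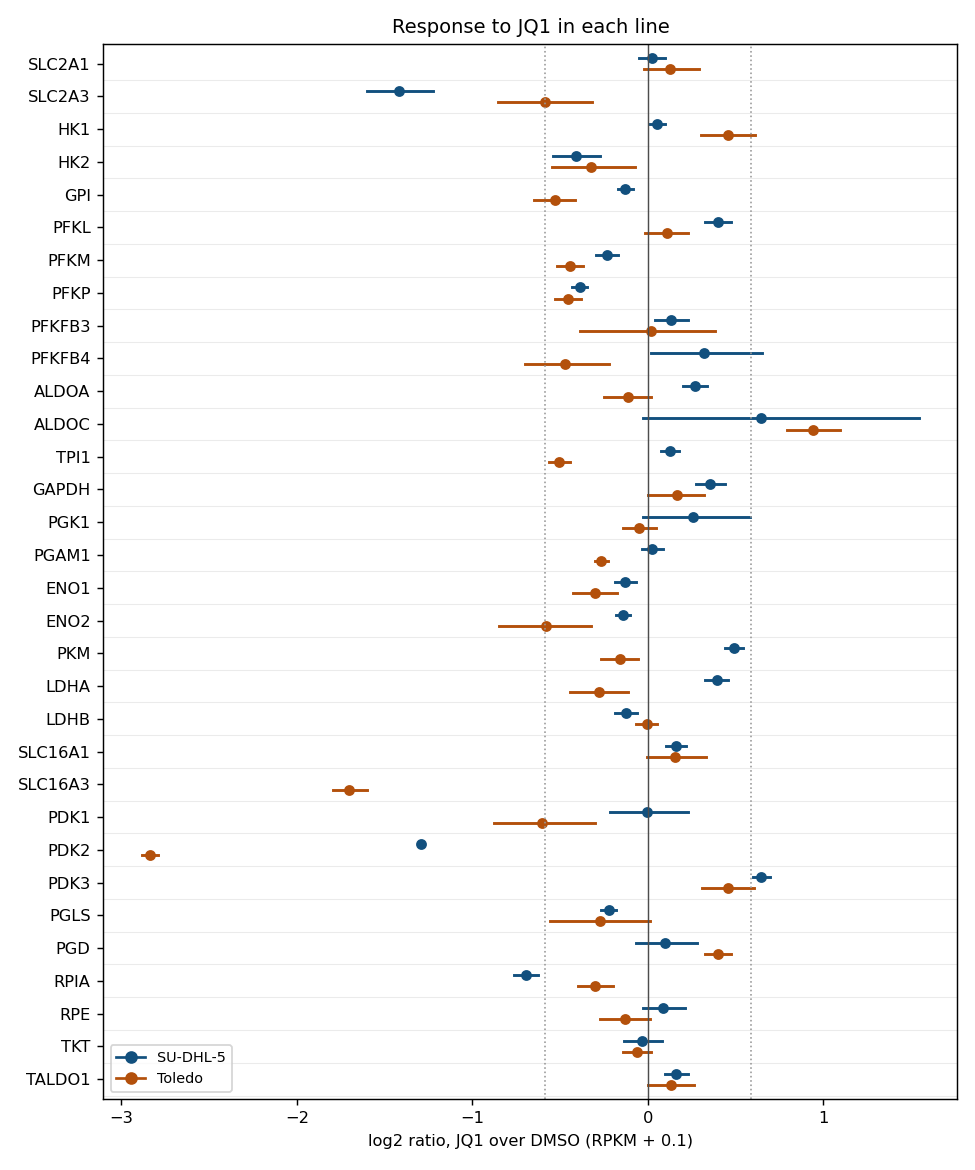
Log2 ratio of RPKM plus 0.1, JQ1 over DMSO, for each assessed gene in SU-DHL-5 (blue) and Toledo (orange); points are ratios of the library means, bars span the lowest to the highest ratio between single libraries, and dotted lines mark 1.5-fold. PDK2 lies at -1.29 and -2.84 and SLC2A3 at -1.42 and -0.59, while most genes lie between the dotted lines.

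Without regard to fold, the libraries of the treatments did not overlap for 23 of the 31 genes in SU-DHL-5, of which 11 were lower with JQ1 (38.5% of all genes were) and 12 higher (42.1%). In Toledo 16 of 32 genes were lower (43.6% of all genes) and 5 higher (29.5%). Lower in both lines by this measure were 9 genes, SLC2A3, HK2, GPI, PFKM, PFKP, ENO1, ENO2, PDK2 and RPIA, 9 of 31 where 29.3% of all genes were. Higher in both were HK1, GAPDH and PDK3, 3 of 31 where 24.4% of all genes were.

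The glucose carriers responded unequally to JQ1. SLC2A3, at chr12:7919228-7936296 of GRCh38, was at 4.66 and 5.53 RPKM with DMSO and at 1.94 and 1.76 RPKM with JQ1 in SU-DHL-5. This was 2.67-fold lower (log2 ratio -1.42, interval -1.69 to -1.24, from 658 and 227 reads). In Toledo it was at 1.47 and 1.81 RPKM with DMSO and at 1.16 and 0.960 RPKM with JQ1 (log2 ratio -0.59, interval -0.95 to -0.31, from 218 and 135 reads), just past the fold. The Toledo call was lost without Toledo DMSO library 2 (log2 ratio -0.44) and without Toledo JQ1 library 2 (-0.47), and also after scaling by the median ratio of all genes (-0.52) or with 1 RPKM added in place of 0.1 (-0.36). SLC2A1 was at 15.7 and 14.7 RPKM with DMSO and 15.8 and 15.2 RPKM with JQ1 in SU-DHL-5, and at 7.88 and 9.36 against 9.65 and 9.20 RPKM in Toledo. Its libraries overlapped in both lines.

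Of the hexokinases, which trap glucose as glucose 6-phosphate, HK2 was at 16.0 and 13.7 RPKM with DMSO and 11.4 and 10.9 RPKM with JQ1 in SU-DHL-5 (log2 ratio -0.41). In Toledo HK2 was at 10.2 and 13.7 RPKM with DMSO and 9.67 and 9.33 RPKM with JQ1 (-0.33). HK1 was at 13.3 and 14.4 RPKM with DMSO and 17.7 and 20.4 RPKM with JQ1 in Toledo (0.46). In SU-DHL-5 HK1 was at 20.5 and 20.6 against 20.7 and 21.9 RPKM. That log2 ratio of 0.05 lay within counting error of no change (interval -0.02 to 0.12). So HK2 lay lower and HK1 higher with JQ1 in each line, with no overlap of libraries and none of the 4 ratios past the fold. GPI was at 77.7 and 76.6 against 49.6 and 57.5 RPKM in Toledo (-0.53), and had a log2 ratio of -0.13 in SU-DHL-5. It would be called lower in Toledo without Toledo JQ1 library 2 (-0.64).

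No phosphofructokinase passed the fold. PFKM (log2 ratio -0.23 in SU-DHL-5, -0.45 in Toledo) and PFKP (-0.39 and -0.46) lay lower with JQ1 in both lines. PFKL was at 43.1 and 45.5 RPKM with DMSO and 59.9 and 57.1 RPKM with JQ1 in SU-DHL-5 (0.40), and its libraries overlapped in Toledo (0.11). PFKFB3 had log2 ratios of 0.13 and 0.02. PFKFB4 was at 14.0 and 19.3 against 22.1 and 19.6 RPKM in SU-DHL-5 (0.32) and at 1.33 and 1.72 against 1.13 and 1.02 RPKM in Toledo (-0.47). Its direction thus differed between the lines, neither ratio being past the fold. The SU-DHL-5 ratio was 0.65 from library 1 of each sample alone, past the fold, and 0.02 from library 2 alone. In Toledo PFKFB4 would be called lower without Toledo DMSO library 1 (-0.63). PFKFB2 was at 0.690 and 0.824 RPKM with DMSO in Toledo, under the level assessed.

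None of the lower glycolytic enzymes from TPI1 to PKM, and neither LDHA nor LDHB, was called with JQ1 in either line. In SU-DHL-5, GAPDH was at 12323 and 12906 RPKM with DMSO and at 16698 and 15596 RPKM with JQ1 (log2 ratio 0.36), and in Toledo at 4144 and 3833 against 4150 and 4788 RPKM (0.16). PKM was at 729 and 700 against 987 and 1017 RPKM in SU-DHL-5 (0.49), and at 425 and 432 against 359 and 409 RPKM in Toledo (-0.16). LDHA, which reduces pyruvate to lactate, was at 1514 and 1611 against 2020 and 2080 RPKM in SU-DHL-5 (0.39), and at 959 and 1080 against 794 and 886 RPKM in Toledo (-0.28). So GAPDH lay higher with JQ1 in both lines, and PKM and LDHA higher in SU-DHL-5 and lower in Toledo. TPI1 went as PKM and LDHA did, with a log2 ratio of 0.12 in SU-DHL-5, against -0.50 in Toledo. Including PFKFB4, 4 genes (of 31) lay higher in SU-DHL-5 and lower in Toledo with no overlap of libraries, where 4.90% of all genes did. No gene showed the reverse (2.05% of all genes).

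Of the remaining steps, SLC16A3 in Toledo was the 1 called. PGAM1 was at 0.03 in SU-DHL-5, with -0.26 in Toledo, ENO1 at -0.13 and -0.30, LDHB at -0.12 and -0.01 and SLC16A1 at 0.16 and 0.15 on the log2 scale. PGK1 had ratios of 0.26 and -0.05, with overlapping libraries in both lines. ENO2 was at 6.65 and 7.62 RPKM with DMSO and 5.30 and 4.19 RPKM with JQ1 in Toledo, a log2 ratio of -0.58 that lay just inside the fold, and at -0.14 in SU-DHL-5. It would be called lower in Toledo without Toledo DMSO library 1 (-0.67) or without Toledo JQ1 library 1 (-0.75). SLC16A3, at chr17:82228406-82239499, was at 1.71 and 1.49 RPKM with DMSO and 0.421 and 0.424 RPKM with JQ1 in Toledo (3.25-fold lower, log2 ratio -1.70). That ratio came from 135 and 34 reads and had an interval of -2.51 to -1.37.

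Of the 2 aldolases, ALDOC, at chr17:28573115-28577264, was at 16.6 and 19.0 RPKM with DMSO and at 32.9 and 35.6 RPKM with JQ1 in Toledo (1.92-fold higher, log2 ratio 0.94, interval 0.85 to 1.05). In SU-DHL-5 it was at 53.5 and 124 RPKM with DMSO and at 156 and 122 RPKM with JQ1. These libraries overlapped, and the ratio was 1.54 from the first libraries alone and -0.03 from the second. ALDOC was called higher in SU-DHL-5 without SU-DHL-5 DMSO library 2 (1.38) or without SU-DHL-5 JQ1 library 2 (0.81). ALDOA showed little change as a gene, with a log2 ratio of 0.27 in SU-DHL-5, against -0.11 in Toledo.

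The transcripts of ALDOA, however, did not move as 1 unit. The gene lies at chr16:30053090-30070420 on the plus strand and has 5 transcripts in the transcript table. ALDOA_1, ALDOA_2 and ALDOA_3 start upstream, ALDOA_2 at position 30064279, and ALDOA_4 and ALDOA_5 share a start at 30065673, 1394 bases further on. The 250 bases before the RefSeq start of each of the 2 main transcripts (GRCh38.p14, plus strand, chr16:30064029-30064278 and chr16:30065510-30065759) are shown because the data divide there, with the letters ACGTG, in either strand, in capitals.
ALDOA upstream start: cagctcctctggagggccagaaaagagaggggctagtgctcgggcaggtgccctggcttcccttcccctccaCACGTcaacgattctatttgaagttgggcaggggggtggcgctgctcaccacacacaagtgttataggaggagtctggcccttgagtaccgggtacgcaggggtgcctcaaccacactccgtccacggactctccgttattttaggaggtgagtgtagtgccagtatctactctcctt
ALDOA downstream start: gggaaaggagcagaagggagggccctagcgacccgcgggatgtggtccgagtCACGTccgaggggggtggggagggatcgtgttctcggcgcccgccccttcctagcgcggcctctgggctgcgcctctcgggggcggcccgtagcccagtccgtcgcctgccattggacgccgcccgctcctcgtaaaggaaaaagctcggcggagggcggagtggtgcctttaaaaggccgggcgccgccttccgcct
The RefSeq downstream start lies 87 bases after that of the files, and the upstream starts coincide. Each window holds ACGTG once.

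The 3 upstream transcripts took 37.8% and 37.4% of ALDOA reads in SU-DHL-5 with DMSO and 4.31% and 4.68% with JQ1. In Toledo they took 31.1% and 32.3% with DMSO and 3.58% and 3.26% with JQ1. The libraries of a sample lay close together, and the shifts of their mean shares were -33.1 percentage points in SU-DHL-5 and -28.3 in Toledo. In summed transcript RPKM, the upstream transcripts were at 539 and 553 with DMSO and at 75.3 and 78.0 with JQ1 in SU-DHL-5 (7.11-fold lower, log2 ratio -2.83). They were at 187 and 189 with DMSO and at 18.2 and 19.0 with JQ1 in Toledo (log2 ratio -3.33). The downstream transcripts were at 943 and 983 against 1833 and 1723 RPKM in SU-DHL-5 (log2 ratio 0.88) and at 446 and 427 against 524 and 617 RPKM in Toledo (0.39). In sum, the upstream transcripts were therefore lower with JQ1 in both lines and the downstream transcripts higher, without overlap of libraries. The downstream rise was that of ALDOA_5. ALDOA_4, from the same start and with far fewer reads, lay lower with JQ1 without overlap (log2 ratio -0.66 in SU-DHL-5 and -0.90 in Toledo).

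**Figure D5:**
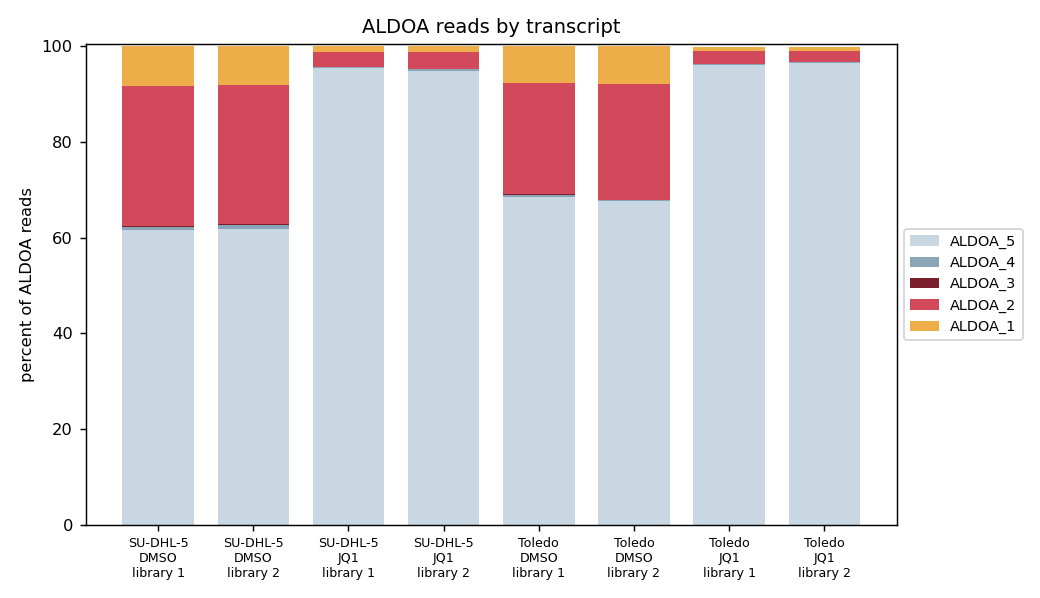
Percent of ALDOA reads on each of its 5 transcripts in the 8 libraries, stacked from the downstream-start transcripts (ALDOA_5, ALDOA_4, blue-grey) to the upstream-start transcripts (ALDOA_3, ALDOA_2, ALDOA_1). The upstream segments take 31.1% to 37.8% of the DMSO bars and 3.26% to 4.68% of the JQ1 bars.

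Among the 21 genes with at least 2 transcripts and 100 reads in every library, a transcript share moved by at least 20 percentage points without overlap of libraries in ALDOA and PFKM in SU-DHL-5 (2 of 21, against 5.81% of all such genes). In Toledo it did so in ALDOA, PFKFB3 and PFKM (3 of 21, against 7.12%). ALDOA was the 1 gene in which a transcript moved in the same direction in both lines (1 of 21, against 1.12%). In SU-DHL-5 the PFKM transcript that moved was PFKM_11, from 3.88% and 6.51% of reads with DMSO to 19% and 35.7% with JQ1. In Toledo PFKM_9 moved from 1.51% and 2.2% to 38.4% and 26%, and PFKM_10 from 10.1% and 38.3% to 0.44% and 0.341%. Some PFKM shares differed widely between libraries of a sample, PFKM_11 taking 61.8% and 26.2% of reads in the Toledo DMSO libraries. In PFKFB3 the transcript that starts farthest upstream of those with reads, PFKFB3_1, took 43.3% and 33.5% of reads with DMSO and 16.4% and 16.5% with JQ1 in Toledo, and 3.37% to 4.85% in all SU-DHL-5 libraries. PKM was on 1 transcript, PKM_3, for 92.7% to 95.6% of its reads in all libraries. How reads that fit several transcripts were shared out is not given in the sources used here, and RPKM of transcripts use other lengths than those of the gene. GENCODE also lists another locus over the span of ALDOA and a short antisense gene at its farthest upstream start, and how reads were divided among these is likewise not given.

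The pyruvate dehydrogenase kinases, which hold pyruvate back from the mitochondrial acetyl-CoA step, differed most among themselves. PDK2, at chr17:50094737-50111369, was at 4.09 and 4.10 RPKM with DMSO and at 1.59 and 1.63 RPKM with JQ1 in SU-DHL-5 (2.45-fold lower, log2 ratio -1.29, interval -1.61 to -1.09, from 454 and 170 reads). In Toledo it was at 4.14 and 3.98 RPKM with DMSO and at 0.489 and 0.475 RPKM with JQ1 (7.14-fold lower, log2 ratio -2.84, interval -3.51 to -2.66, from 467 and 53 reads). From the same DMSO level the Toledo libraries thus went further down, and both calls held without any 1 library. PDK1 was at 4.95 and 6.77 RPKM with DMSO and at 4.00 and 3.64 RPKM with JQ1 in Toledo (log2 ratio -0.60), and at 16.3 and 20.4 against 19.0 and 17.5 RPKM in SU-DHL-5, where the libraries overlapped. Its Toledo call was lost without Toledo DMSO library 2 (-0.36) or without Toledo JQ1 library 2 (-0.54), and also after scaling (-0.53) or with 1 RPKM added (-0.51).

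PDK3, at chrX:24465227-24550466, went the other way. It was at 2.85 and 2.94 RPKM with DMSO and at 4.49 and 4.67 RPKM with JQ1 in SU-DHL-5 (1.56-fold higher, log2 ratio 0.65, interval 0.56 to 0.77), and under the fold with 1 RPKM added (0.52). In Toledo it was at 1.99 and 2.30 RPKM with DMSO and at 2.88 and 3.08 RPKM with JQ1 (0.45), without overlap and under the fold. The shorter transcript PDK3_2 took 39.6% and 36.8% of PDK3 reads with DMSO and 50.6% and 48.8% with JQ1 in SU-DHL-5, and 40.3% and 39.9% against 53.3% and 52.1% in Toledo. With transcript values summed, PDK3 passed the fold in Toledo too (log2 ratio 0.76). The 250 bases before the RefSeq starts of these kinases with opposite responses (GRCh38.p14, plus strand, chr17:50095101-50095350 and chrX:24465036-24465285) are shown for comparison, with ACGTG and CACGTG, in either strand, in capitals.
PDK2: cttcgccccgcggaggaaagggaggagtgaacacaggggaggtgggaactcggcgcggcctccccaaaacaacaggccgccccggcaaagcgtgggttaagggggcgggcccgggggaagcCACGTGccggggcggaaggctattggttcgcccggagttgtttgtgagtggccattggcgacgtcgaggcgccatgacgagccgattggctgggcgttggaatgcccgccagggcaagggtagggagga
PDK3: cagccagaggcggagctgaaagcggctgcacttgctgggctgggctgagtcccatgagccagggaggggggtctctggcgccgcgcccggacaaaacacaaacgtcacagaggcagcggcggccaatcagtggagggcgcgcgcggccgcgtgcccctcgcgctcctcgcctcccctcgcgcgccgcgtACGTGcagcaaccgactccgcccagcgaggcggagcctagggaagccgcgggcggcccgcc
The PDK2 window belongs to PDK2_2, which took 88.9% to 97.5% of PDK2 reads. It holds CACGTG once, and the PDK3 window, that of PDK3_1, holds ACGTG outside any CACGTG. The RefSeq starts lie 76 bases (PDK2_2) and 59 bases (PDK3_1) after the deposited ones. The end of each printed stretch thus lies past the deposited start.

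The letters were counted in the RefSeq windows from 250 bases before to 50 bases after each start, in both strands. CACGTG, the E-box that MYC and its partners bind, was in 7 of the 61 windows of 32 of these genes (11.5%), against 7.26% of all 35116 windows. It lay in windows of ALDOA, ALDOC, GAPDH, HK2, LDHA, PDK2 and PFKFB3, 21.9% of the 32 genes against 8.77% of all genes. A gene was counted if any of its windows held the letters. The share of genes thus depends on how many windows a gene has, which was not corrected for. The ALDOA window with CACGTG was that of ALDOA_3, which took 0% to 0.289% of ALDOA reads in the libraries. The windows of ALDOA_2 and ALDOA_5 held none. ACGTG, the core of the hypoxia response element and a part of CACGTG, was in 34.4% of the 61 windows and 21.4% of all windows. TATAAA was in 6.56% and 11.5%. Of the 7 genes with CACGTG, PDK2 (lower in both lines) and ALDOC (higher in Toledo) were called with JQ1 and the other 5 were not, and a relation of the letters to the response was not tested. For PFKFB2, SLC16A1 and SLC2A3 no window was used.

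Of the pentose phosphate genes, RPIA, the ribose 5-phosphate isomerase at chr2:88691658-88750935, was the 1 called with JQ1. It was at 51.1 and 51.9 RPKM with DMSO and at 30.5 and 33.1 RPKM with JQ1 in SU-DHL-5 (1.62-fold lower, log2 ratio -0.69, interval -0.78 to -0.61). In Toledo it was at 32.4 and 35.4 against 26.8 and 28.2 RPKM (-0.30), in the same direction and under the fold. PGD, the second dehydrogenase of the oxidative branch, was at 121 and 125 RPKM with DMSO and 156 and 168 RPKM with JQ1 in Toledo (0.40), and its libraries overlapped in SU-DHL-5 (0.10). TKT, the transketolase, was at 98.9 and 86.9 against 89.9 and 91.7 RPKM in SU-DHL-5 and at 89.2 and 87.7 against 80.8 and 89.0 RPKM in Toledo, overlapping in both lines. PGLS (log2 ratios -0.22 and -0.28), RPE (0.09 and -0.13) and TALDO1 (0.16 and 0.13) were likewise under the fold.

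The ratio in Toledo was lower than that in SU-DHL-5 for 23 of the 31 genes assessed in both. The median difference was -0.19 on the log2 scale, against -0.10 over 8718 genes. Since that median was negative too, most of all genes also had the lower ratio in Toledo. Their share was not counted, so the 23 genes are not read as a trait of the pathway. By 1.5-fold or more and with no overlap of library ratios, the ratio was lower in Toledo for 6 genes (6 of 31, against 6.61% of all genes). These were PFKFB4, TPI1, PKM, LDHA, PDK1 and PDK2. For SLC2A3 alone the ratio was higher by that measure (2.95% of all genes). The widest difference was that of PDK2, -1.54, and those of the other 5 genes ran from -0.79 to -0.60. SLC2A3 differed by 0.83 the other way. With 1 sample in each condition these differences between the lines were not tested.

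The other genes of the pathway were taken from lists of neighbouring enzymes, and their counts stand against the shares of all genes called with JQ1, 12.9% lower and 9.01% higher in SU-DHL-5 and 17.2% lower and 6.98% higher in Toledo. Of 21 other isozymes and side steps of glycolysis, none of the 6 assessed was called with JQ1 in SU-DHL-5, and 3 of 9 (33.3%) were called lower in Toledo, FBP1, ENO3 and SLC16A7. FBP1, the fructose 1,6-bisphosphatase that runs the phosphofructokinase step backwards, was at 29.6 and 27.1 RPKM with DMSO and at 1.06 and 1.34 RPKM with JQ1 in Toledo (log2 ratio -4.45, interval -4.93 to -4.22). In SU-DHL-5 it was at 0.0353 RPKM in DMSO library 1 and listed at 0 elsewhere. In Toledo its ratio was thus further from 0 than that of any of the 35 genes. ENO3, the muscle enolase (-1.45), and SLC16A7, the carrier MCT2 (-0.83), had values of at most 1.70 RPKM in all libraries.

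Of 10 genes of pyruvate entry, 9 were assessed in each line. MPC1, of the mitochondrial pyruvate carrier, was at 4.58 and 4.34 RPKM with DMSO and at 8.50 and 8.32 RPKM with JQ1 in SU-DHL-5 (1.87-fold higher), the 1 call there (11.1% of the 9). In Toledo PDP1, the phosphatase that reverses the PDK kinases, was called higher, at 4.35 and 5.01 against 7.83 and 6.58 RPKM, and DLAT, of the dehydrogenase complex, lower (log2 ratio -0.60), each 1 of 9. Of 8 pentose phosphate neighbours, 6 were assessed in each line, and each of the following calls is 1 of 6 (16.7%). RBKS, the ribokinase, was called higher in SU-DHL-5 (0.65). H6PD was called higher in Toledo (0.84), and TKTL1, a transketolase-like gene, lower, at 2.03 and 1.997 RPKM with DMSO and 0.0424 and 0.0641 RPKM with JQ1. Among 7 regulators, of which 6 were assessed in each line, TXNIP, a glucose-induced inhibitor of glucose uptake, was called higher in both lines, at 12.6 and 14.5 against 29.7 and 25.2 RPKM in SU-DHL-5 and at 38.1 and 43.5 against 70.4 and 66.1 RPKM in Toledo. MLXIP, a glucose sensor that drives TXNIP, was called higher in Toledo (0.63), which made 1 of 6 regulators in SU-DHL-5 (16.7%) and 2 of 6 in Toledo (33.3%). Of all genes assessed in both lines, 3.79% were called higher in both.

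Between the lines with DMSO, 24.0% of all assessed genes were called lower in Toledo and 27.1% higher. Of the isozymes and side steps, 6 of 9 were called higher in Toledo (66.7%), SLC2A6, SLC2A8, ADPGK, BPGM, ENO3 and FBP1, and PGM1 was the 1 called lower (11.1%). FBP1 was at 0.0353 and 0 RPKM in SU-DHL-5 and at 29.6 and 27.1 RPKM in Toledo. Of the pyruvate genes, 4 of 9 were called lower in Toledo (44.4%), MPC2, PDHB, DLD and PDP2, and MPC1 and PDP1 were called higher (22.2%). Of the pentose phosphate neighbours, RBKS and SHPK were called lower, 2 of 7 (28.6%), and PRPS2 and TKTL1 higher, again 2 of 7. HIF1A, the oxygen-regulated subunit of HIF-1, was called lower in Toledo (log2 ratio -1.36). It was at 61.3 and 63.1 RPKM in SU-DHL-5 and at 20.3 and 28.2 RPKM in Toledo. TXNIP was called higher in Toledo (1.58). Each was 1 of the 6 regulators assessed (16.7%), and the remaining ones were not called. Among those, MYC had means of 42.5 RPKM in SU-DHL-5 and 42.4 RPKM in Toledo.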

How the data were processed

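Values in RPKM were deposited by the authors for genes and, in a second table, for transcripts, from trimmed paired reads of stranded mRNA libraries. The submitters' processing notes name CASAVA 2.0 and GRCh38, and the aligner, the counting and the annotation are not given in the sources used here. Mapped reads per library were recovered as the totals that turned RPKM of genes of 1 exon into whole reads, and feature lengths, searched from 100 to 40000 bases, as those that made all values whole to within 0.003 reads, as was the case for 14942 of 14944 genes with a value above 0 and for 44036 of 44041 transcripts. This recovery and the call rule were tested on simulated data. The simulated reads varied by counting error only, so that test cannot show how the call rule fares where libraries or cultures differ more. No count model was fitted, since each condition was 1 sample (n = 1) of 2 libraries.

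Samples were grouped by their labelled line and treatment. Library means were compared as log2 ratios with 0.1 RPKM added. The 3 comparisons were JQ1 with DMSO in each line and the lines in DMSO. All 35 members are named, with library values for every gene called and for GAPDH, LDHA, SLC2A1, HK2, PKM and TKT. Other genes are named only where called and in a fixed list. The exceptions are MYC, in the list but not called, and the genes picked by their library ratio. The members and lists were chosen with earlier results of these data known. A B-cell marker of the lists is not reported here. Alternatives varied the pseudocount, the filter, the fold, the scaling, the table and the libraries. Promoter sequences are those of RefSeq (GRCh38.p14). The deposited starts, counted from 0, were raised by 1 before they were compared with those of RefSeq. The starts of ALDOA_2 and ALDOA_3 then coincided. The RefSeq starts used for ALDOA_5, PDK2_2 and PDK3_1 lay 87, 76 and 59 bases after the deposited ones. The software was Python 3.11.15 with matplotlib 3.10.9, scipy 1.17.1, pandas 2.3.3 and numpy 2.4.6.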

Additional observations from a re-analysis of the deposited data

Results flagged for a closer look

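In 4 genes the libraries of the treatments did not overlap in either line, JQ1 being the higher in SU-DHL-5 and the lower in Toledo, so that the 2 lines moved in opposite directions, and this difference was not tested. The log2 ratios in SU-DHL-5 and Toledo were 0.32 and -0.47 for PFKFB4, 0.12 and -0.50 for TPI1, 0.49 and -0.16 for PKM, and 0.39 and -0.28 for LDHA. None of these 8 ratios reached 1.5-fold. For PFKFB4 the SU-DHL-5 ratio was 0.65 from library 1 alone, past 1.5-fold, and 0.02 from library 2 alone. Its Toledo ratio was -0.63 without Toledo DMSO library 1, past 1.5-fold. Libraries apart in both lines, higher in SU-DHL-5 and lower in Toledo, were found in 4.90% of all genes assessed in both lines.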

How the results depend on the processing

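The number of genes called lower in Toledo than in SU-DHL-5 with DMSO, 19, stayed within 1.5 times of itself under every alternative, from 13 at 2-fold to 26 with no minimum fold. The other counts were small and moved with the rule. With no minimum fold, the calls with JQ1 were 11 lower and 12 higher in SU-DHL-5, 16 lower and 5 higher in Toledo and 9 lower in both lines, and 4 genes were higher in Toledo with DMSO. At 2-fold they were 0 higher in SU-DHL-5, 2 lower and 0 higher in Toledo, 1 lower in both and 1 higher between the lines. With a pseudocount of 1 RPKM, 0 genes were higher in SU-DHL-5, 2 lower in Toledo and 1 lower in both. With a filter of 5 RPKM, 0 were higher in SU-DHL-5, 1 lower in Toledo, 0 lower in both and 1 higher between the lines, by construction since PDK2, PDK3, SLC16A3 and Toledo SLC2A3 lie under it. Scaled by the median ratio, 2 were lower in Toledo and 1 in both, SLC2A3 and PDK1 being lost. From library 1 alone, 3 were higher in SU-DHL-5 and 1 lower in both. With transcript values summed, 2 were higher in Toledo. The median log2 ratio in SU-DHL-5 was -0.0138 from library 2 alone. In Toledo it was -0.1456 with the 5 RPKM filter, -0.2309 and -0.2505 from library 1 and library 2 alone, -0.1399 scaled, -0.2648 with transcripts summed and -0.1832 centred on transcript length. Between the lines it was -0.6768 with no filter and -0.6736 from library 2 alone. Leaving out each library in turn gave medians of 0.0457 to 0.0876 in SU-DHL-5, -0.2644 to -0.1395 in Toledo and -0.7744 to -0.6698 between the lines, and counts of 1 to 2 higher in SU-DHL-5, 2 to 6 lower in Toledo and 1 to 2 lower in both lines. Without Toledo DMSO library 2, the 2 calls left in Toledo were SLC16A3 and PDK2. No called ratio changed sign. Of the ratios of single genes under other settings, 407 stayed within their counting interval and 163 did not; the cause was not tested. No paired analysis was possible because there was only 1 sample per condition. Depth limits PDK2 and SLC16A3 most, with 53 and 34 reads in Toledo with JQ1.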

Other observations

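The DMSO libraries of SU-DHL-5 differed from each other in a few named genes, and the genes in this paragraph were chosen after their values were seen. Of these, ALDOC, at 53.5 and 124 RPKM, was the 1 gene of the pathway that differed past 1.5-fold between them. Of the 6394 genes with at least 5 RPKM in either library, 17 did so. The 10 genes with the highest ratio of library 2 to library 1 were LOC102724594 (6.93 and 18.4 RPKM), ALDOC, RGS1 (6.67 and 11.9), FAM162A (176 and 295), CA9 (7.73 and 12.7), HILPDA (24.1 and 39.0), MXI1 (4.70 and 7.48), BNIP3 (44.3 and 70.0), C7orf55 (5.42 and 8.57) and WNT10A (15.7 and 24.7). With JQ1 the SU-DHL-5 libraries were at 357 and 333 RPKM for FAM162A, 50.3 and 43.7 for HILPDA, 65.1 and 62.4 for BNIP3 and 1.30 and 1.33 for CA9. They were at 28.7 and 29.4 RPKM for WNT10A, 3.85 and 2.49 for RGS1 and 3.86 and 3.85 for C7orf55. Hence CA9, RGS1 and C7orf55 lay below both DMSO libraries with JQ1, and FAM162A, HILPDA and WNT10A above both. The libraries of the remaining genes among the 10 overlapped. PGK1, at 582 and 813 RPKM, and PFKFB4, at 14.0 and 19.3 RPKM, also stood higher in the second DMSO library. What separates the libraries of a sample is not stated in the labels, and its part in the results was not tested.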
